A study of Mus musculus with 32 samples.

Results

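The cell cycle and replication genes followed here are 44 mouse genes given by name, from the factors that license DNA replication to the kinases and motors of mitosis. Each symbol was matched to 1 of the 41388 Ensembl gene IDs in the deposited count tables, and all 44 were found. All 44 passed the filter on low counts, which kept 16136 genes, and the lowest count of any of them in any library was 11 reads. The libraries are RNA sequencing of primary chondrocytes, the cells that build cartilage, from femoral heads of inbred LG/J and SM/J mice, taken at postnatal day 21 and grown unpassaged for 4 days in medium with serum. LG/J mice are known to heal well and SM/J mice poorly, and the study compared the strains. The 4 groups were LG/J females, LG/J males, SM/J females and SM/J males, with 8 libraries each, and no genotype other than strain and no treatment was named in the labels. The labels do not state whether libraries of 1 group came from different animals or cultures, so p-values measure only how far these libraries spread, and that spread may be technical.

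A cell enters the cycle when D and E cyclins and their kinases switch on E2F transcription factors, which drive the genes for DNA synthesis. Licensing factors then load the Mcm helicase on replication origins, and the polymerase clamp and nucleotide-making enzymes serve the replication fork. Later, B-Myb and Foxm1 drive the genes of mitosis: Cdk1 with the A and B cyclins, the Aurora and Polo kinases, the spindle and the anaphase-promoting complex, an enzyme that marks proteins for destruction. In growth plates chondrocytes proliferate in columns before they enlarge, and in adult articular cartilage they rarely divide.

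Total counts per library ran from 15840330 to 25571598. All 12 chondrocyte markers checked, including Col2a1, Acan and Sox9, had reads in every library. Both LG/J libraries numbered 1 stood apart, with summed chondrocyte markers of 1613 CPM, a count scaled to the total of its library, in the female and 2641 CPM in the male, against 14980 CPM or more in every other LG/J library. Their 8 inflammatory response genes, among them Spp1, Mmp3 and Lcn2, summed to 256700 and 230300 CPM, against at most 21090 CPM in any other library. A further 6 libraries, called mixed-sex here, held Xist together with the Y-linked Ddx3y, each above 10 CPM. They were female 4 and female 5 of LG/J, female 3 and female 4 of SM/J, and male 2 and male 3 of SM/J. Within groups, 9 pairs of libraries differed by only 3.59 to 4.77 times sampling noise, and summing each set of such close libraries left 24 libraries. Strain differences over both sexes that rest on these libraries are given with and without them.

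The genes as a set differed several-fold between libraries of the same strain and sex. Their mean log2 CPM ran from 3.42 to 5.45 in LG/J, a 4.09-fold range, and from 3.56 to 5.66 in SM/J, a 4.28-fold range. Among females the group mean was 4.37 ± 0.57 for LG/J and 4.63 ± 0.78 for SM/J, and among males 4.31 ± 0.80 for LG/J and 4.71 ± 0.35 for SM/J (SD over 8 libraries). SM/J males were the most even, with a 1.92-fold range. The 4 highest libraries were SM/J females 3 and 4 at 5.66 and 5.56, LG/J female 3 at 5.45 and LG/J male 1 at 5.18. The lowest were LG/J males 7 and 8 at 3.42 and 3.45 and SM/J female 7 at 3.56. In bulk RNA, fewer dividing cells and less of each transcript per cell cannot be told apart.

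**Figure D1:**
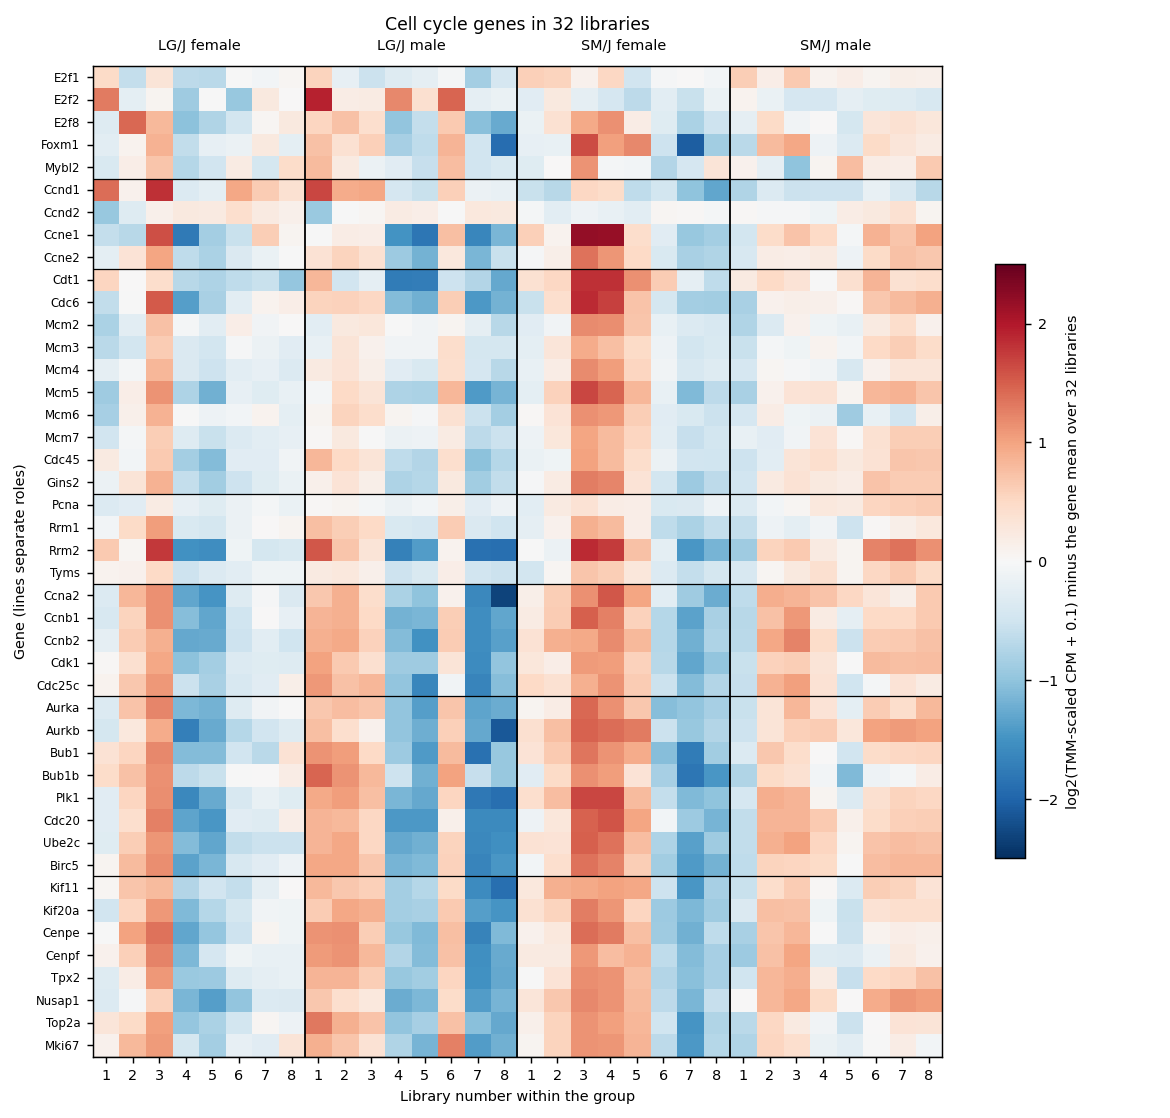
Each row is 1 of the 44 genes and each column 1 of the 32 libraries, and the colour is log2(TMM-scaled CPM + 0.1) minus the mean of that gene over all libraries, with colours ending at 2.5 either way. Most genes are high together in SM/J females 3 and 4 and LG/J female 3 and low together in LG/J males 7 and 8, while Pcna, Ccnd2 and E2f1 change little between libraries.

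The genes moved together from library to library. LG/J female 3 was above the median of its group for 43 of the 44 genes, and LG/J male 7 for 1 of 44. The standard deviation (SD) of log2 CPM within groups had a median of 0.81 over the 44 genes, against 0.39 over all 16136 genes, and 41 of the 44 lay above that second value. Rrm2, the small subunit of the enzyme that makes deoxynucleotides, spread the most, from 73.1 to 918 CPM in LG/J and from 99.5 to 984 CPM in SM/J. Pcna, the sliding clamp that holds polymerases on DNA, spread the least, from 19.1 to 28.1 CPM and from 18.7 to 37.5 CPM. The median SD was 0.92 for the mitotic kinases, checkpoint and anaphase-promoting complex, 0.89 for the A and B cyclins, Cdk1 and Cdc25c, and 0.54 for origin licensing and helicase.

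**Figure D2:**
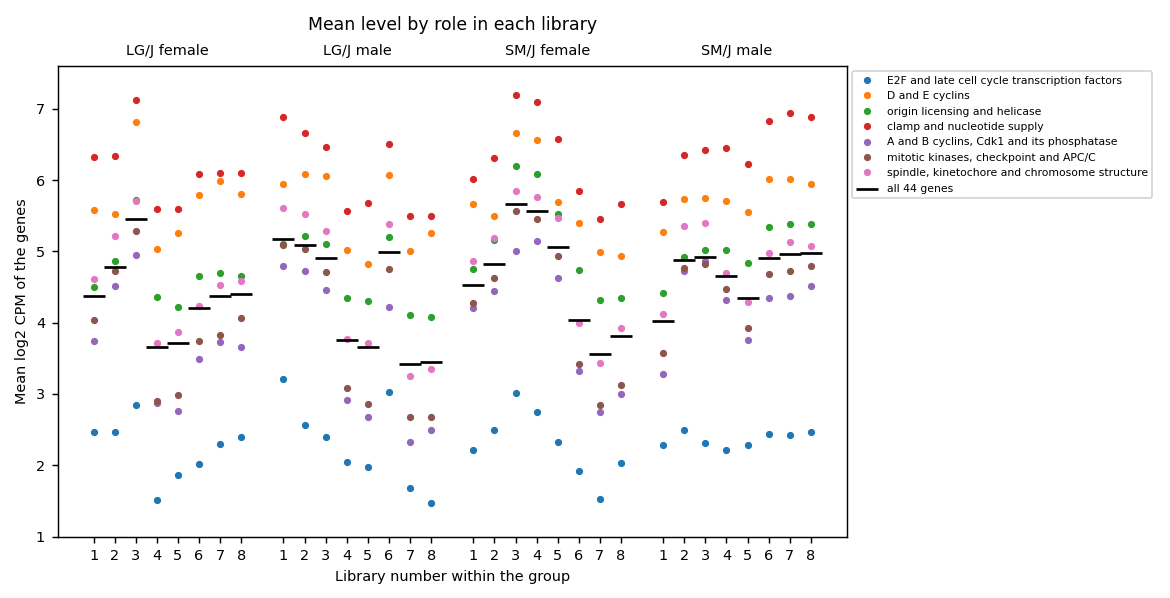
Each dot is the mean log2 CPM of the genes of 1 role in 1 library, coloured by role, and each black bar is the mean over all 44 genes. The bars run from 3.42 in LG/J male 7 to 5.66 in SM/J female 3, and the 3 mitotic roles cover a wider range than the E2F factors or the licensing genes.

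This shared movement was set against genes outside the 44. For each library the mean log2 CPM of 60 other mitosis genes was taken, and a slope on this level was fitted within groups for every gene, where a slope of 1 means that a gene changes in proportion to the list. The median slope was 1.16 over the 44 genes and 0.02 over all genes tested. It was above 1 for 27 of the 44 and for 3.04% of all genes. The slopes describe genes measured in the same libraries and carry no test here. The steepest slope of the 44 was that of Rrm2, at 1.62. Plk1, a kinase that drives entry into and exit from mitosis, had a slope of 1.49 and Birc5, a subunit of the chromosomal passenger complex, of 1.41. The 10 licensing genes had a median slope of 0.71 and ranged widely, from Mcm3 at 0.47 and Mcm2 at 0.48 to Mcm5 at 1.10 and Cdc6 at 1.27. E2f1 at 0.25, Pcna at 0.24 and E2f2 at 0.31 hardly followed. Ccnd2, a D cyclin, was the only gene of the 44 with a negative slope, -0.21. Close libraries were also alike here: the mean level of the 44 genes differed by 0.01 to 0.25 log2 units within the 9 close pairs, and by a median of 0.67 in the other 103 pairs within groups.

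Markers of other cells were present beside these levels. The summed fibroblast and dedifferentiation markers were 5802 and 5599 CPM in SM/J females 3 and 4, where the cell cycle genes were highest, and 797 and 669 CPM in LG/J males 7 and 8, where they were lowest. This order did not hold in every group. SM/J male 1 had the highest such sum of its group, 3874 CPM, and the lowest cell cycle level, 4.03. SM/J female 5 had the lowest sum of its group, 1092 CPM, at a level of 5.06. All 8 of these markers had reads in every group. In LG/J male 1, at a cell cycle level of 5.18, the same sum was 372 CPM, and the inflammatory genes stood at 230300 CPM. Their part in the levels of Ccnd1, Ccnd2 and E2f2 in the libraries numbered 1 was not tested. Macrophage markers summed to 33.6 to 1852 CPM in LG/J and to 92.5 to 1346 CPM in SM/J, with Lyz2 at 9.10 to 1025 CPM, C1qb at 0 in 11 libraries and the highest sum in LG/J male 6. Osteoclast markers summed to 141 to 502 CPM, most of it Ctsk, and erythroid, endothelial and lymphocyte lists to at most 1.09, 8.03 and 4.25 CPM. The part of other cells in the cell cycle levels was not tested.

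Because the genes moved together, their promoters were read for the motifs known to tie them to the cycle. RefSeq promoters of mouse build GRCm38.p6, running from 250 bases before to 50 after the transcript start, were matched for 33 of the 44 genes with 35 entries. The motifs searched on both strands were the E2F octamers TTTCCCGC, TTTCGCGC, TTTGCCGC and TTTGGCGC, the hexamer TTTGAA of the cell cycle homology region and its variant TTTAAA, and the CCAAT box. An E2F octamer was found in 22.9% of the 35 promoters and in 2.3% of all 32851 promoters of the table. TTTGAA was found in 42.9% against 17.9%, TTTAAA in 25.7% against 13.2% and CCAAT in 77.1% against 37.4%. TTTGAA and CCAAT stood together in 42.9% against 7.0%. By role, E2F octamers were in 6 of the 8 matched licensing genes (Cdc6, Cdt1, Mcm3, Mcm5, Mcm6 and Mcm7) and in none of the 7 matched mitotic kinase, checkpoint and anaphase-promoting complex genes or the 6 matched spindle genes. TTTGAA was in 5 of those 7 and 4 of those 6, in 2 of the 8 licensing genes and in 2 of the 4 matched E2F and late factors. CCAAT was in 6 of the 8 licensing genes, 6 of the 7 and 5 of the 6. The differences between roles were not tested. A match describes these letters and does not show that a factor binds.

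Parts of 3 licensing promoters with E2F octamers, of Cdk1 with both kinds of motif, and of 4 mitosis promoters with TTTGAA are printed to show these arrangements, 5′ to 3′ on the strand of the gene, with the motifs in capitals. Some E2F matches overlap each other on opposite strands, as in the first capitals of Mcm6 and Mcm5. A TTTGAA or CCAAT on the other strand is printed as TTCAAA or ATTGG. The stretch of Cdc6 lies within the Cdc6 gene in the gene coordinates deposited with the counts, outside its exons.
Mcm6, chr1:128359706-128359825, minus strand: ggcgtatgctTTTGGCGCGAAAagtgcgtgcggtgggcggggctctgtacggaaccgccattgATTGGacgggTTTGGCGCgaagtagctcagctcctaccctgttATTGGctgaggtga
Mcm5, chr8:75109349-75109508, plus strand: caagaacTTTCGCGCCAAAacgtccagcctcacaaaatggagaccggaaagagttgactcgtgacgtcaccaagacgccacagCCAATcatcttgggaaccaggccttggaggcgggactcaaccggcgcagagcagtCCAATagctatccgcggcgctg
Cdc6, chr11:98908006-98908150, plus strand: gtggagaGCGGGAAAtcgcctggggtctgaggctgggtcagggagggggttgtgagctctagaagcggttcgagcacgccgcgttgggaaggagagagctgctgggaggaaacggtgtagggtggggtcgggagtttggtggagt
Cdk1, chr10:69352913-69353052, minus strand: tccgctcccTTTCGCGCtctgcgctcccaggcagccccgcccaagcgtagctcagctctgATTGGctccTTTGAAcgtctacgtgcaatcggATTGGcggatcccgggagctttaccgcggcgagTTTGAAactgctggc
Cdc20, chr4:118437344-118437413, minus strand: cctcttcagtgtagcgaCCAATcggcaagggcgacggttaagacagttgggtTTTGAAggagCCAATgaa
Top2a, chr11:99024190-99024299, minus strand: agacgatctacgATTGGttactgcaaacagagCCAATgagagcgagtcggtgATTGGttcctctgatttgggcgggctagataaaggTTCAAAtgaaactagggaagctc
Kif11, chr19:37376322-37376381, plus strand: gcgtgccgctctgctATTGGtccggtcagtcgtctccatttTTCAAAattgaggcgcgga
Mki67, chr7:135716380-135716509, minus strand: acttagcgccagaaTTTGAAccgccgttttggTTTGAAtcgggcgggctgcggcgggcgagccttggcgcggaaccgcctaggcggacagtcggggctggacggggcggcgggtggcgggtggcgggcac
The genes with TTTGAA here, from Cdk1 to Mki67, had slopes of 1.14 to 1.35 on the mitosis level, and the licensing genes Mcm6, Mcm5 and Cdc6 had slopes of 0.60, 1.10 and 1.27. The other genes with TTTGAA ran from 0.31 for E2f2, with Mcm2 at 0.48 and Cdc45 at 0.79, to 1.49 for Plk1. Some matched genes without TTTGAA were as steep, with Rrm2 at 1.62, Birc5 at 1.41, Bub1 at 1.39 and Cenpe at 1.38. Of these, Rrm2, Birc5 and Cenpe held the variant TTTAAA, and Bub1 held neither hexamer. The relation of motifs to slopes was not tested.

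Between the strains, 7 of the 44 genes differed over both sexes at an adjusted p under 0.05 (15.9%, edgeR's quasi-likelihood test), against 29.9% of all genes tested (16.4% higher and 13.5% lower in LG/J). DESeq2 called 9 of the 44 (20.5%, against 31.9% of all genes). With voom the share was not smaller than that of all genes, with 17 called (38.6% against 37.7%), and the difference in shares was not tested. Ccnd1, which encodes cyclin D1, and E2f2 were higher in LG/J. Cdt1, Nusap1, Aurkb, E2f1 and Pcna were lower in LG/J. The strains overlapped for every one of the 44 genes, where 2.62% of all genes did not overlap. The most used markers of dividing cells, Mki67 and Top2a, did not pass the test. Of the 44 estimates 39 were negative (lower in LG/J), against 47.2% of all genes, and their median log2 fold change was -0.31 against 0.02. That lean rests on 6 libraries: without the mixed-sex libraries, 21 of the 44 estimates were negative, the mean level differed by -0.05 instead of -0.33 log2 units between the strains, and the calls fell to Ccnd1, E2f2 and Cdt1 (23.8% of all genes called). With the close libraries summed, those 3 genes were called (19.6% of all genes) and 33 estimates were negative. Without both LG/J libraries numbered 1, 6 of the 44 were called (2 higher and 4 lower, against 32.2% of all genes), and 3 when the mixed-sex libraries were left out as well (against 25.1%). These last 3 were Ccnd1, Cdt1 and E2f1.

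**Figure D3:**
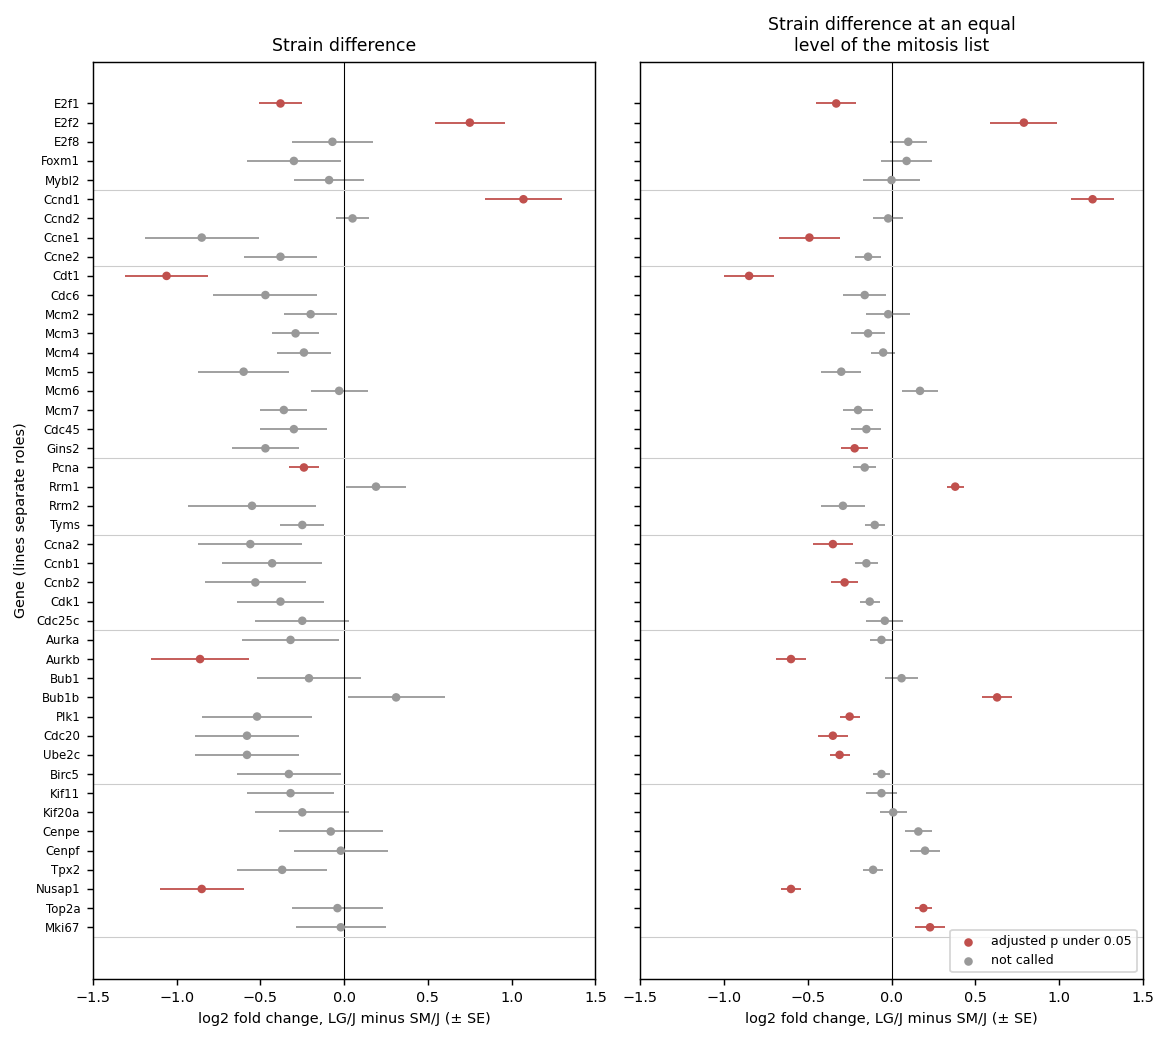
Points are log2 fold changes of LG/J minus SM/J with their standard errors for the 44 genes, red at an adjusted p under 0.05, fitted without (left) and with (right) the level of 60 other mitosis genes as a covariate. On the left 7 genes are red and most points lie to the left of 0, and on the right the error bars are shorter and 17 genes are red.

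Among the D and E cyclins, Ccnd1 showed the firmest difference. Cyclin D1 activates Cdk4 and Cdk6 in early G1 in answer to growth signals (ENSMUSG00000070348, GRCm38 chromosome 7, 144929931 to 144939869). Its level had a low, median and high of 21.9, 45.7 and 115 CPM over the 16 LG/J libraries and of 13.1, 22.3 and 46.5 CPM over the 16 SM/J libraries. The strains overlapped, with 15 of 16 LG/J libraries above the SM/J median and 1 of 16 SM/J libraries above the LG/J median. The mean was 51.6 ± 28.9 against 24.5 ± 8.99 CPM (SD, n = 16 each), a log2 fold change of 1.07 ± 0.23 (SE; adjusted p = 0.000536, edgeR). It was called in females (1.10 ± 0.32, adjusted p = 0.0197) and in males (1.04 ± 0.32, adjusted p = 0.0193). Whether its call in females held without the mixed-sex libraries or with close libraries summed is not given here. The high LG/J libraries were female 3 at 115 CPM and the libraries numbered 1, at 104 CPM in the male and 85.5 CPM in the female. The difference stayed called without both libraries numbered 1 (0.89, adjusted p = 0.00186). Its adjusted p ranged from 1.38e-05 to 0.00186 over all alternatives fitted without the covariate of mitosis genes. Of the exon bases of Ccnd1, 21.3% lie over LTO1 on the opposite strand, and the strand setting of the counting is not stated. The level of LTO1 was 55.3 CPM in LG/J against 57.1 CPM (-0.04, adjusted p = 0.604).

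The other cyclins of this role did not pass the test. Ccnd2 (ENSMUSG00000000184, chromosome 6, 127125779 to 127151048) was the most abundant of the 44 genes per length, at a mean of 284 RPKM (CPM divided by gene length) in LG/J and 275 RPKM in SM/J. It had a low, median and high of 810, 1731 and 2088 CPM in LG/J and of 1303, 1532 and 2033 CPM in SM/J (log2 fold change 0.05 ± 0.10, adjusted p = 0.768). Its 2 lowest libraries were the LG/J libraries numbered 1, at 810 and 823 CPM, in which Ccnd1 was at 85.5 and 104 CPM. Ccne1, the cyclin of the Cdk2 kinase at the start of S phase (ENSMUSG00000002068, chromosome 7, 38097984 to 38107534), ran from 1.29 over a median of 3.19 to 14.9 CPM in LG/J and from 2.42 over 6.70 to 22.2 CPM in SM/J. Its estimate was -0.85 ± 0.34 (adjusted p = 0.0596), and -0.24 (adjusted p = 0.634) without the mixed-sex libraries. Its highest levels, 22.2 and 21.8 CPM, were in SM/J females 3 and 4, which are among those. Ccne2, the second E cyclin, stood at 26.0 ± 11.6 against 33.8 ± 14.9 CPM (-0.38 ± 0.22, adjusted p = 0.208).

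The E2F factors went different ways. E2f2, an activator E2F (ENSMUSG00000018983, chromosome 4, 136172394 to 136196057), had a low, median and high of 0.960, 2.12 and 7.58 CPM in LG/J and of 1.19, 1.56 and 2.32 CPM in SM/J. The SM/J libraries lay close together and the LG/J libraries spread widely, from below to far above them, with the highest levels in the LG/J male and female numbered 1 and in males 4 and 6. It was higher in LG/J (0.75 ± 0.21, adjusted p = 0.0063, edgeR), and 0.48 (adjusted p = 0.0289) without both libraries numbered 1. Without these and the mixed-sex libraries the adjusted p was 0.0666. E2f2 was called in males (1.13 ± 0.30, adjusted p = 0.00567) and not in females (0.38 ± 0.30, adjusted p = 0.477), and the test of the difference between the sexes did not pass (adjusted p = 0.692). Its level is low, at 19 to 134 reads per library.

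E2f1, the E2F best known for starting S phase (ENSMUSG00000027490, chromosome 2, 154559407 to 154569892), was lower in LG/J. It had a low, median and high of 13.2, 20.7 and 35.5 CPM in LG/J and of 17.1, 26.5 and 37.7 CPM in SM/J, and 15 of 16 SM/J libraries lay above the LG/J median. The log2 fold change was -0.38 ± 0.13 (adjusted p = 0.0267, edgeR), and the call was lost with close libraries summed (-0.37, adjusted p = 0.109) and without the mixed-sex libraries (-0.26, adjusted p = 0.193). Foxm1, a factor of late cell cycle genes (ENSMUSG00000001517, chromosome 6, 128362967 to 128375893), had a low, median and high of 1.23, 4.30 and 8.90 CPM in LG/J and of 1.09, 5.02 and 15.2 CPM in SM/J (-0.30 ± 0.28, adjusted p = 0.462). E2f8, a repressor E2F, and Mybl2, which encodes B-Myb, had estimates of -0.07 ± 0.24 and -0.09 ± 0.21 (adjusted p = 0.865 and 0.789).

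**Figure D4:**
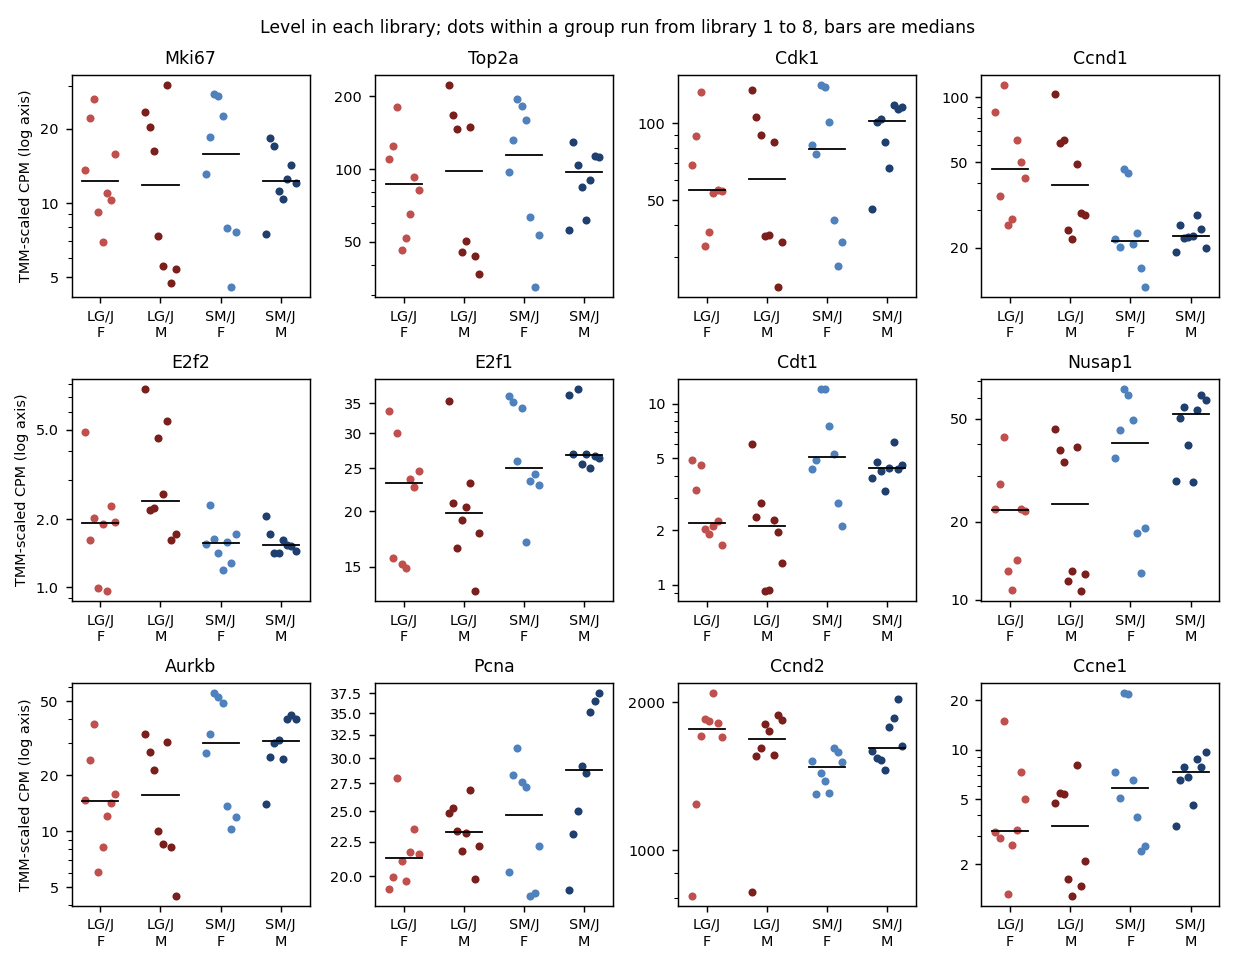
Each dot is the TMM-scaled CPM of 1 gene in 1 library on a log axis, in 4 groups of 8, and bars are group medians. In both sexes the medians of Ccnd1 are higher and those of Cdt1 lower in LG/J, with overlapping dots, while the dots of Mki67, Top2a and Cdk1 cover nearly the same range in LG/J and SM/J.

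Of the 10 genes of origin licensing and the helicase, 1 was lower in LG/J and none was higher, and all 10 estimates were negative with a median of -0.33. Cdt1 brings the Mcm helicase to origins and is destroyed once S phase starts (ENSMUSG00000006585, chromosome 8, 122568015 to 122573128). It had a low, median and high of 0.922, 2.19 and 5.997 CPM in LG/J and of 2.11, 4.49 and 12.1 CPM in SM/J, and 15 of 16 SM/J libraries lay above the LG/J median. The mean was 2.59 ± 1.44 against 5.42 ± 2.86 CPM, a log2 fold change of -1.06 ± 0.25 (adjusted p = 0.00126, edgeR). Cdt1 was called in each sex, at -1.16 ± 0.35 in females (adjusted p = 0.0211) and -0.95 ± 0.35 in males (adjusted p = 0.0481). Whether its call in females held without the mixed-sex libraries or with close libraries summed is not given here. The highest levels, 12.1 CPM each, were in SM/J females 3 and 4, which are mixed-sex and a close pair. Without the mixed-sex libraries the difference over both sexes was -0.73 (adjusted p = 0.0371). Over all alternatives fitted without the covariate of mitosis genes, the adjusted p of Cdt1 ranged from 2.04e-05 to 0.0371.

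The other licensing genes were lower in mean in LG/J without passing the test. Mcm2 to Mcm7 encode the ring-shaped helicase that unwinds DNA, and their estimates ran from -0.60 ± 0.27 for Mcm5 (51.7 ± 28.9 against 78.5 ± 42.2 CPM, adjusted p = 0.0966) to -0.03 ± 0.17 for Mcm6 (54.3 ± 17.1 against 56.6 ± 25.4 CPM, adjusted p = 0.917). The subunits form 1 ring in the cell, but here they differed in how far they moved with the mitosis level, with slopes from 0.47 for Mcm3 to 1.10 for Mcm5. Mcm7 (-0.36 ± 0.14, adjusted p = 0.0577) lay nearest the threshold and was called in 9 of the 32 fits that each left out 1 library. Cdc6, which loads the helicase together with Cdt1, had an estimate of -0.47 ± 0.31 (adjusted p = 0.273). Cdc45 and Gins2, which turn the ring into the active helicase, were at -0.30 ± 0.20 and -0.47 ± 0.20 (adjusted p = 0.26 and 0.0794). Gins2 shares 67.3% of its exon bases with Gse1 on the opposite strand, which stood at 0.930 CPM against 28.2 CPM for Gins2.

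Among the clamp and the enzymes of nucleotide supply, Pcna was lower in LG/J. Pcna (ENSMUSG00000027342, chromosome 2, 132249162 to 132253314) had a low, median and high of 19.1, 22.0 and 28.1 CPM in LG/J and of 18.7, 27.4 and 37.5 CPM in SM/J, with the highest levels in SM/J males 6 to 8, which are close libraries. Its difference was small, -0.24 ± 0.09 (adjusted p = 0.0395, edgeR). Its call did not hold in 12 of 32 fits with 1 library removed, where adjusted p reached 0.0743, nor without the LG/J libraries numbered 1 (adjusted p = 0.0561) or with close libraries summed (-0.18, adjusted p = 0.245). A near-identical copy, Pcna-ps2, held 25.9% of their joint level, and summed with it the log2 ratio of the means was -0.27 instead of -0.24. Rrm1 and Rrm2, the subunits of ribonucleotide reductase, had estimates of opposite sign, 0.19 ± 0.18 for Rrm1 (105 ± 38.9 against 92.4 ± 34.1 CPM, adjusted p = 0.467) and -0.55 ± 0.38 for Rrm2 (292 ± 253 against 427 ± 272 CPM, adjusted p = 0.307). Tyms, which makes thymidylate, was at -0.25 ± 0.13 (adjusted p = 0.165).

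None of the 5 genes of the A and B cyclins, Cdk1 and its phosphatase passed the test, and their estimates ran from -0.56 to -0.25. Cdk1, the kinase that drives cells into mitosis (ENSMUSG00000019942, chromosome 10, 69336635 to 69352938), had a low, median and high of 22.8, 54.6 and 136 CPM in LG/J and of 27.4, 92.7 and 142 CPM in SM/J (-0.38 ± 0.26, adjusted p = 0.286). The ranges were nearly the same in both strains, while 12 of 16 SM/J libraries lay above the LG/J median. Its partner Ccna2 was at -0.56 ± 0.31 (adjusted p = 0.174), Ccnb1 at -0.43 ± 0.30 (adjusted p = 0.297) and Ccnb2 at -0.53 ± 0.30 (adjusted p = 0.194). Cdc25c, the phosphatase that activates Cdk1, was at -0.25 ± 0.28 (adjusted p = 0.538), and at 0.00 as a log2 ratio of means when summed with a near-identical copy that held 18.3% of the joint level.

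Among the 8 mitotic kinases, checkpoint and anaphase-promoting complex genes, Aurkb was lower in LG/J. Aurkb, the Aurora kinase of the chromosomal passenger complex that corrects spindle attachment (ENSMUSG00000020897, chromosome 11, 69045647 to 69051664), had a low, median and high of 4.51, 14.5 and 37.9 CPM in LG/J and of 10.3, 30.6 and 55.5 CPM in SM/J. The difference was -0.86 ± 0.29 (adjusted p = 0.0253, edgeR), with 2 of 16 LG/J libraries above the SM/J median. It was lost with close libraries summed (-0.69, adjusted p = 0.162) and without the mixed-sex libraries (-0.57, adjusted p = 0.204). Aurka, the Aurora kinase of the spindle poles, and Birc5, which binds Aurkb in the passenger complex, were at -0.32 ± 0.29 and -0.33 ± 0.31 (adjusted p = 0.451 and 0.465). Plk1, Cdc20 and Ube2c, the latter 2 an activator and the ubiquitin-carrying enzyme of the anaphase-promoting complex, were at -0.52 ± 0.33, -0.58 ± 0.31 and -0.58 ± 0.31 (adjusted p = 0.255, 0.161 and 0.165). The checkpoint kinase Bub1 was at -0.21 ± 0.31 (adjusted p = 0.656) and its relative Bub1b, at 27.3 ± 15.2 against 22.1 ± 11.8 CPM, had a positive estimate of 0.31 ± 0.29 (adjusted p = 0.455).

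Of the 8 genes of the spindle, kinetochore and chromosome structure, Nusap1 was lower in LG/J. Nusap1, which bundles spindle microtubules around chromosomes (ENSMUSG00000027306, chromosome 2, 119618298 to 119651244), had a low, median and high of 10.8, 22.1 and 45.4 CPM in LG/J and of 12.7, 47.3 and 65.1 CPM in SM/J. No LG/J library lay above the SM/J median, and 13 of 16 SM/J libraries lay above the LG/J median. The difference was -0.85 ± 0.25 (adjusted p = 0.0104, edgeR), and -0.73 (adjusted p = 0.0767) with close libraries summed and -0.54 (adjusted p = 0.157) without the mixed-sex libraries. Tpx2, which activates Aurora A on the spindle, was at -0.37 ± 0.27 (adjusted p = 0.327). The motors Kif11 and Kif20a were at -0.32 ± 0.26 and -0.25 ± 0.28 (adjusted p = 0.394 and 0.53). The kinetochore proteins Cenpe and Cenpf were at -0.08 ± 0.31 and -0.02 ± 0.28 (adjusted p = 0.888 and 0.97).

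Mki67 and Top2a had nearly equal means in the strains. Mki67, which coats mitotic chromosomes and is the usual stain for cycling cells (ENSMUSG00000031004, chromosome 7, 135689788 to 135716379), had a low, median and high of 4.74, 12.3 and 30.2 CPM in LG/J and of 4.56, 12.8 and 27.6 CPM in SM/J. Its estimate was -0.02 ± 0.27 (adjusted p = 0.974), and its standard error is far larger than the estimate. Top2a, the topoisomerase that untangles chromosomes (ENSMUSG00000020914, chromosome 11, 98992943 to 99024189), had a low, median and high of 36.8, 87.1 and 224 CPM in LG/J and of 32.4, 101 and 195 CPM in SM/J (-0.04 ± 0.27, adjusted p = 0.932). Both estimates changed sign without the mixed-sex libraries, to 0.36 and 0.30 (adjusted p = 0.413 and 0.509).

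Within each sex fewer genes were called. In females, 2 of the 44 were called (Ccnd1 higher and Cdt1 lower in LG/J), against 13.4% of all genes (6.87% higher, 6.49% lower), and in males 3 (Ccnd1 and E2f2 higher and Cdt1 lower), against 22.3% (12.8% higher, 9.48% lower). At least 1 of the 2 calls in females was lost without the mixed-sex libraries, and at least 1 with close libraries summed. Between the sexes over both strains, none of the 44 was called by edgeR, against 3.46% of all genes, and none by DESeq2 or voom. At an unadjusted p under 0.05 there was 1, Pcna, at 0.18 (male minus female, adjusted p = 0.251). None showed a strain difference that differed between the sexes, against 0.0062% of all genes, with 0 of 44 at an unadjusted p under 0.05 and 0 with DESeq2 or voom. The mixed-sex libraries stayed in these comparisons of the sexes under their labelled sex, and values without them are not given here.

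The spread between libraries was also compared between the strains, as the absolute deviation of log2 CPM from the group median. None of the 44 genes differed (limma, lowest adjusted p = 0.532), against 0.0124% of all genes, and 5 were at an unadjusted p under 0.05. The estimate was wider in LG/J for 35 genes and wider in SM/J for 9, with a median difference of 0.15 against 0.03 over all genes. The smallest adjusted p belonged to Pcna, whose mean deviation was 0.12 in LG/J and 0.28 in SM/J. Those of Ccnd1 were 0.69 and 0.31 and those of E2f2 0.58 and 0.17. On simulated data with an added SD of 1.5 log2 units in 1 strain, this test recovered 17.5% of 200 changed genes, so that differences in spread of this size would mostly be missed.

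Because the genes moved together between libraries, the strains were also compared at an equal level of the 60 other mitosis genes, a comparison added after the data were seen. This took the mean log2 CPM of those genes in each library as a covariate. With it, 17 of the 44 genes were called (38.6%, edgeR), 6 higher and 11 lower in LG/J, against 31.5% of all genes, and the median difference was -0.10 against 0.02. Of these, 12 were called in all 4 such fits: with all libraries, with close libraries summed, without both LG/J libraries numbered 1 and without the mixed-sex libraries. These last 3 fits called 21.9%, 31.2% and 26.1% of all genes. The share of all genes called in all 4 fits is not given here, so the 12 cannot be set against it. The covariate holds only mitosis genes and is itself measured in these libraries, so a difference here is relative to that list.

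At an equal mitosis level, 5 genes were higher in LG/J in all 4 fits. Ccnd1 was at 1.20 ± 0.13 (adjusted p = 1.73e-08) and E2f2 at 0.79 ± 0.20 (adjusted p = 0.00279). Bub1b, a checkpoint protein that holds back anaphase, had ranged from 9.09 to 58.1 CPM in LG/J and from 5.93 to 46.9 CPM in SM/J and was at 0.63 ± 0.09 (adjusted p = 5.99e-07). Rrm1 was at 0.38 ± 0.05 (adjusted p = 1.67e-06) and Top2a at 0.19 ± 0.05 (adjusted p = 0.00487). Neither Bub1b, Rrm1 nor Top2a was called without the covariate.

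The other 7 genes called in all 4 fits were lower in LG/J. Cdt1 was at -0.85 ± 0.15 (adjusted p = 5.86e-05), Nusap1 at -0.60 ± 0.06 (adjusted p = 8.93e-10) and Aurkb at -0.60 ± 0.09 (adjusted p = 1.71e-06). Cdc20 at -0.35 ± 0.09, Ube2c at -0.31 ± 0.06, Ccnb2 at -0.28 ± 0.08 and Plk1 at -0.25 ± 0.06 were smaller (adjusted p = 0.0039, 5.56e-05, 0.0102 and 0.00393). These last 4 genes act from mitotic entry to anaphase, and none was called without the covariate. Cdc20 shares 2.8% of its exon bases with Elovl1 on the opposite strand, a gene at 247 CPM against 9.49 CPM for Cdc20 and itself lower in LG/J (-0.33, adjusted p = 0.00107). The part of Elovl1 reads in the Cdc20 counts was not tested. E2f1, Ccne1, Ccna2, Gins2 and Mki67 were called with all libraries and lost the call in at least 1 of the other 3 fits. Mki67 was at 0.23 ± 0.09 (adjusted p = 0.044).

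**Figure D5:**
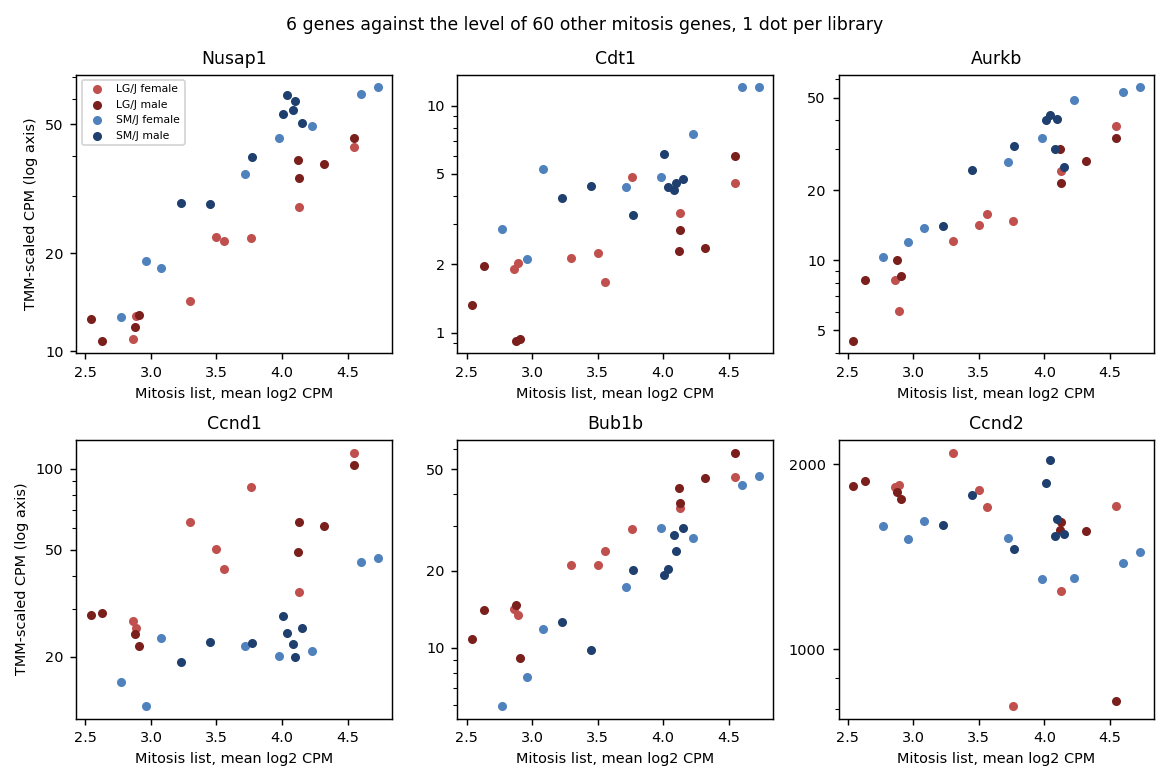
Each dot is 1 library, with the mean log2 CPM of 60 other mitosis genes on the horizontal axis and the TMM-scaled CPM of the named gene on a log axis, coloured by group. At a like mitosis level most SM/J dots lie above the LG/J dots for Nusap1 and Aurkb and below them for Bub1b, while Ccnd2 does not rise with the list and is lowest in the LG/J libraries numbered 1.

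Beyond the 44 genes, 158 other cell cycle genes in 7 lists were read in the same fit, and 157 were tested. Over both sexes 30 of them were called (19.1%, 4 higher and 26 lower in LG/J), against 29.9% of all genes. Of the 157 estimates 84.1% were negative, against 47.2% of all genes, and the median was -0.16. Without the mixed-sex libraries 52.5% were negative (46.8% of all genes), the median was -0.01, and 20 genes were called, 7 higher and 13 lower. Of 60 mitosis genes 1 was higher and 5 were lower. Hmgb2, a chromatin protein, was higher in LG/J, with means of 8.53 ± 2.84 and 3.51 ± 1.14 CPM (1.30 ± 0.17, adjusted p = 2.38e-07), and Cdca3, which helps trigger mitotic entry, was lower at 17.6 ± 8.89 against 33.6 ± 13.3 CPM (-0.93 ± 0.24, adjusted p = 0.00423), with an adjusted p of 0.101 without the mixed-sex libraries. Of 33 genes of the fork and nucleotide supply 1 was higher and 7 were lower, among them Tipin, a fork protection factor (-0.42 ± 0.08, adjusted p = 0.0001). Of 17 further licensing genes 2 were lower, Mcm8 (-0.53 ± 0.14, adjusted p = 0.00363) and Gins1 (-0.48 ± 0.17, adjusted p = 0.0279). Without the mixed-sex libraries their adjusted p was 0.059 and 0.215.

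Cdk6, a kinase that cyclin D1 activates, was higher in LG/J, with means of 197 ± 77.9 and 128 ± 25.3 CPM (0.62 ± 0.17, adjusted p = 0.00501), while Cdk4, the other such kinase, was lower, at 336 ± 39.1 against 388 ± 45.0 CPM (-0.21 ± 0.06, adjusted p = 0.0119). Tfdp2, a dimer partner of E2F factors, was lower in LG/J, with means of 6.90 ± 1.52 and 11.8 ± 1.58 CPM (-0.77 ± 0.09, adjusted p = 4.15e-08). In this list 1 of 18 genes tested was higher and 3 were lower. Of 16 subunits and regulators of the anaphase-promoting complex 1 was higher and 6 were lower, led by Cdc26 at 37.8 ± 2.84 against 53.5 ± 7.82 CPM (-0.49 ± 0.04, adjusted p = 1.53e-10). Of 6 genes listed with the DREAM complex, which silences cell cycle genes in resting cells, Lin37 (-0.15 ± 0.04, adjusted p = 0.00772) and Rbbp4 (-0.13 ± 0.05, adjusted p = 0.0283) were lower. Of 7 inhibitors of cyclin-dependent kinases Cdkn2b was lower (-0.57 ± 0.22, adjusted p = 0.0426). With close libraries summed, Cdk4, Rbbp4 and Cdkn2b did not pass (adjusted p = 0.124, 0.192 and 0.0754).

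Several of the 44 genes share sequence with others. In the gene coordinates deposited with the counts, 13 overlap exons of another gene, 11 of them on the opposite strand. Kif20a shares 33.2% of its exon bases with Cdc23, at 122 CPM against 60.7 CPM for Kif20a, and Ccna2 shares 14.6% with Exosc9, at 48.0 CPM against 5.20 CPM for Ccna2. For 11 genes, GENCODE transcripts of another gene aligned over at least 500 bases at 90% identity or more. For Rrm1 these belonged to 5 differently named genes, among them Nom1 and Mdga2, and were not taken as copies of it. Besides Pcna and Cdc25c, summing with the aligned genes moved the log2 ratio of Cdc20 from -0.58 to -0.52.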

How the data were processed

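RNA sequencing libraries of cultured chondrocytes were grouped by the strain and sex in their labels. Per the submitters' processing notes, STAR 2.0.4b was the aligner, GRCm38 the genome and featureCounts 1.45 (Subread) the counter. Which annotation release and strand setting were used is not given in the sources used here. For each library a table deposited by the authors held read counts as whole numbers, CPM and RPKM. The deposited CPM and RPKM followed from the counts and gene lengths to within 1.2e-10 and 9.1e-11. Of 41388 IDs, 40254 matched a symbol, and the rest held 0.109% of counts.

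All tests used the deposited counts: TMM scaling, filterByExpr, and the quasi-likelihood test of edgeR 4.0.16 in R 4.3.3, with 1 mean per group and all 32 libraries. Benjamini-Hochberg adjustment ran over 16136 genes, and a gene was called under 0.05. Levels are TMM-scaled CPM, with RPKM to compare genes. Log2 CPM used a prior count of 2. The spread was tested with limma 3.58.1. DESeq2 1.42.0 and voom were alternatives.

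The 44 genes, the lists and the alternatives were chosen with earlier results of these data known. Of the 44, those given in full were 9 set by name (Mki67, Top2a, Pcna, Ccnd1, Ccnd2, Ccne1, Cdk1, E2f1 and Foxm1) and up to 8 called each way with the smallest p. Of each further list up to 3 called genes with the smallest p were named. A gene that this rule would name is not reported here. Comparisons at an equal mitosis level were added after the data were seen.

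On simulated counts the strain test recovered 66% of 1.5-fold and 84% of 2-fold changes over 15851 genes, with 4 false calls of 154, and the test at an equal mitosis level 54% and 88% over 15841 genes, with 8 false calls of 150. The simulated libraries held no close pairs such as those seen here, so these rates may not hold for the real libraries. Similar transcripts of other genes were found with BLAST 2.17.0.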

Additional observations from a re-analysis of the deposited data

Results flagged for a closer look

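Within groups of 8 libraries, 180 sets of values were checked for a library far from the other 7, by Dixon's ratio above 0.526, and 5 sets showed one. Chance gives about 1 in 20. In LG/J female 3, Mcm4 was at 6.83 log2 CPM against 5.49 to 5.95 in the other 7 libraries, and Mcm7 at 6.16 against 4.98 to 5.49. In LG/J male 1, 1 of the libraries that stood apart, Ccnd2 was at 9.69 against 10.61 to 10.88. In SM/J male 1, Mcm5 was at 4.99 against 5.88 to 6.67 and Gins2 at 4.22 against 4.88 to 5.41. LG/J female 3 was the highest of its group in the mean of the 44 genes (5.45), and SM/J male 1 was the lowest of its group (4.03).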

How the results depend on the processing

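Over both sexes 7 of the 44 genes were called by edgeR, and 17 with voom and quality weights. The count was 3 without the mixed-sex libraries, 3 with close libraries summed and 3 without those libraries and both LG/J libraries numbered 1, a setting chosen after seeing the data. Leaving out 1 library gave 6 to 12, with 12 without LG/J female 3, and 33 to 39 negative estimates, against 21 without the mixed-sex libraries and 21 without both kinds of library. In females the count fell from 2 to 1 without the mixed-sex libraries and to 1 with close libraries summed. In males it rose from 3 to 6 with DESeq2, 20 with voom and 5 with the replicate block. In males edgeR called 22.3% of all genes. The shares of all genes under these settings within each sex, and with 1 library left out, are not given here. Those counts can therefore not be set against all genes. Some same-numbered libraries deviated together and others did not: 30 of 48 such pairs had a correlation over 0.1 (median 0.14), among them 7 of the 8 pairs of an LG/J female and male, against 99 of 336 pairs with different numbers (median -0.01). As not every pair was over 0.1, and 7 of 32 libraries were closest to their own number, the numbers were not taken to pair the libraries. With the replicate block 7 genes were called over both sexes, against 32.8% of all genes. The cause of these changes was not tested. Scaling by library totals or DESeq2's size factors moved the median of all genes by 0.013 or -0.006.

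Estimates that turned sign were not called in either setting. Without the mixed-sex libraries they were E2f8 0.27, Foxm1 0.16, Mybl2 0.03, Ccnd2 -0.02, Cdc6 0.00, Mcm2 0.01, Mcm4 0.00, Mcm6 0.21, Ccnb1 0.05, Cdc25c 0.16, Aurka 0.11, Bub1 0.17, Plk1 0.01, Birc5 0.08, Kif20a 0.16, Cenpe 0.45, Cenpf 0.41, Tpx2 0.03, Top2a 0.30 and Mki67 0.36. Without both kinds of library they were E2f8 0.29, Foxm1 0.15, Mybl2 0.02, Cdc6 0.02, Mcm2 0.09, Mcm4 0.01, Mcm6 0.29, Ccnb1 0.03, Cdc25c 0.07, Aurka 0.12, Bub1 0.08, Birc5 0.03, Kif20a 0.18, Cenpe 0.41, Cenpf 0.36, Tpx2 0.01, Top2a 0.19 and Mki67 0.33. With close libraries summed they were E2f8 0.05, Mybl2 0.06, Cenpe 0.03, Cenpf 0.02, Top2a 0.06 and Mki67 0.07. Mcm6 was 0.07 with voom and 0.02 without both LG/J libraries numbered 1. Leaving out 1 library, sign turned within -0.22 to 0.03 for Cenpe, -0.15 to 0.06 for Cenpf and Mki67, -0.23 to 0.02 for E2f8, -0.12 to 0.04 for Mcm6, -0.17 to 0.03 for Mybl2 and -0.16 to 0.03 for Top2a. At an equal mitosis level, sign turned for Mybl2 (0.09) and Kif20a (-0.05) with close libraries summed, for Ccnd2 (0.10), Mcm2 (0.10) and Aurka (0.01) without both LG/J libraries numbered 1, and for Mcm2 (0.01) without the mixed-sex libraries.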
